A study of Mus musculus with 6 samples.

Results

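MLE12 is an immortalized mouse lung epithelial cell line, and the transcriptome of its parental, wild-type form is described here gene by gene. The members are the 2 parental libraries among the 6 libraries of the series: a monolayer that was left intact (unscratched) and a monolayer that was scratched with a pipet tip, both collected 24 hours later. The other 4 libraries come from mutant lines and were not used. Each group has 1 library, so no difference was tested and no p-value was computed. The 95% intervals given are exact Poisson intervals, which cover counting error only. The series compares a wounded monolayer of the parental line with those of Lingo1, Lingo2, Lingo3 and TROY mutants, so the genes that the parental cells use set the starting point for that comparison. MLE12 is known as a line from lung tumours of mice in which a surfactant protein C promoter drove the SV40 large T antigen, a viral protein that binds p53 and the retinoblastoma proteins. It grows in culture without the other cells of a lung.

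The alveolar surface is lined by type II cells, which make the lipids and proteins of surfactant and store them in lamellar bodies, and by thin type I cells, across which gas is exchanged. NKX2-1, FOXA1, FOXA2 and GATA6 are transcription factors that act together on surfactant protein genes. Fibroblasts, endothelial cells, leukocytes and the mesothelium that covers the lung have marker genes of their own, and those were read in the same libraries.

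The unscratched library held 28224654 counts in genes and the scratched library 29307338. Levels of a gene are given as CPM, counts per 1000000 counts in genes of that library. Levels of different genes are compared per length, on the RPKM scale of the authors or, for list medians, which include genes without such a value, as counts per kilobase of annotated exon per 1000000 counts. Pairs of values are given in the order unscratched, scratched. A gene is called expressed when it had at least 1 CPM in both libraries, not detected when it had at most 3 counts in each, and low in every other case. The limit that a count of 0 allows, 3 counts, stands at 0.106 and 0.102 CPM. By these rules 11303 of 21596 protein-coding genes (52.3%) were expressed, 8249 (38.2%) were not detected and 2044 were low. Over all gene identifiers, 11941 of 46078 were expressed. Among 11359 genes with at least 50 counts in both libraries, the log2 difference in CPM, scratched minus unscratched, had a median of 0.02 and an SD of 0.15, and the intervals of the 2 libraries overlapped in 77.8% of genes. The scratched library also held counts of some endothelial and matrix genes that were at or near 0 in the unscratched one. These are given with the endothelial and the basement membrane genes. Sftpc, Dcn and Tek, set as markers of type II cells, fibroblasts and endothelial cells, were all expressed, so each is described beside the rest of its list.

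The parental cells were high in housekeeping, cytoskeletal and iron-storage transcripts, and among these stood a group of epithelial, caveolar and matrix genes. Protein-coding genes took 98.5% and 98.6% of counts, ribosomal protein genes 3.49% and 3.39%, and the mitochondrially encoded genes 2.11% and 2.38%. The 100 most counted genes held 14.99% and 14.7% of all counts. The protein-coding genes with the highest RPKM were mitochondrial (mt-Co1, mt-Nd1, mt-Cytb), followed by the translation elongation factor gene Eef1a1 with 2357 and 2454 RPKM. S100a6, which encodes a calcium-binding protein, stood at 1739 and 1729 RPKM. The ferritin chain genes Ftl1 and Fth1 had 1674 and 1625, and 1581 and 1521 RPKM. Clu, which encodes the secreted chaperone clusterin, had 1553 and 1343 RPKM and was the eleventh of all genes ranked. Tpt1, Actb, Tmsb4x, Hsp90ab1, Ptms and Eef2, genes of growth, cytoskeleton, protein folding and translation, lay between 931 and 1515 RPKM in both libraries. Anxa3, an annexin gene, had 753 and 804 RPKM.

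The highest RPKM of all, 13675 and 11241, was at Mir6236, an annotated microRNA locus of chromosome 9 (110281287 to 110281409). The libraries were prepared from messenger RNA, so this value is not a level of the mature microRNA. An annotated ribosomal RNA gene (CT010467.1) and an antisense gene (Gm15564) also stood among the 25 highest, with 1390 and 1127, and 1304 and 1234 RPKM.

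**Figure D1:**
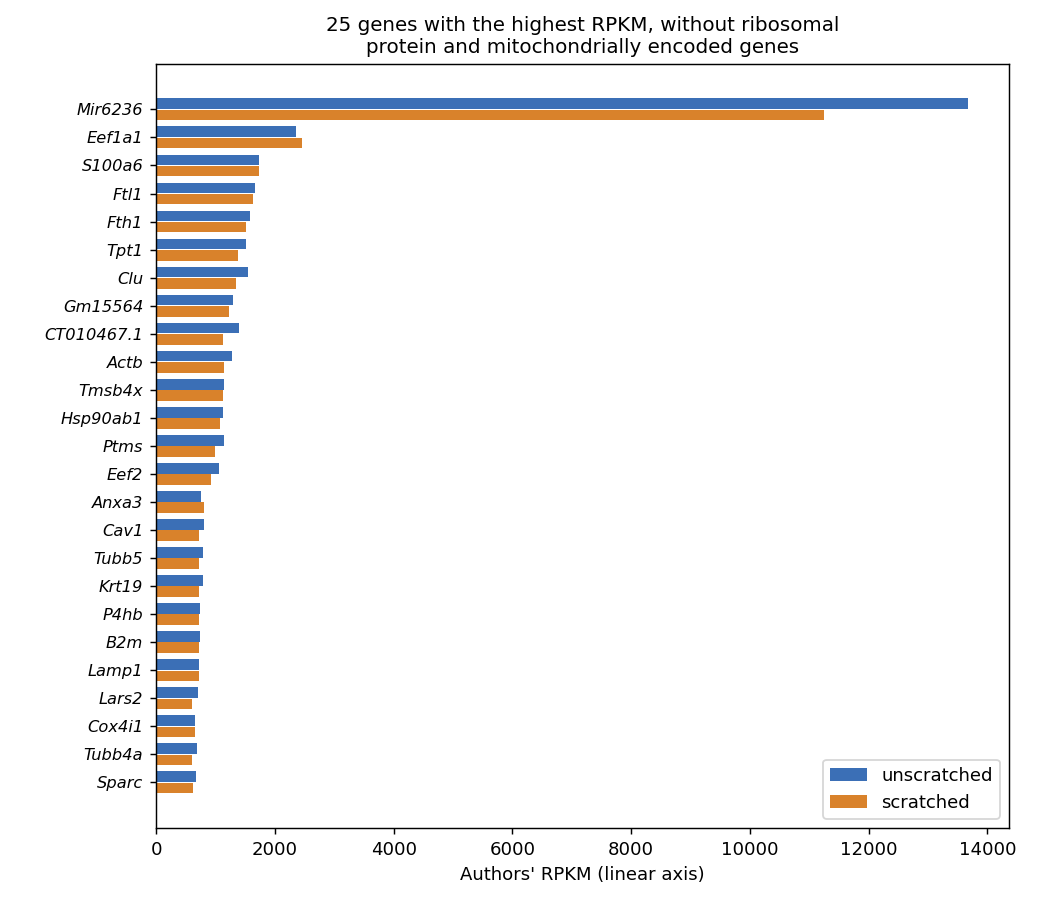
The RPKM of the authors (linear axis) in the unscratched (blue) and scratched (orange) parental library, for the 25 genes with the highest mean after ribosomal protein and mitochondrially encoded genes were left out. Mir6236 stands apart, and Cav1, Krt19 and Sparc are among the other genes, with between 616 and 803 RPKM.

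Alveolar type II genes were present in part. Of 22 type II marker genes, 10 were expressed, 5 were low and 7 were not detected, 45.5% expressed beside the 52.3% of all protein-coding genes. The expressed members were mostly enzymes, transporters and regulators. Scd1, a fatty acid desaturase gene, had 66.1 and 71.2 RPKM. Lpcat1, an enzyme that makes dipalmitoyl phosphatidylcholine, the main surfactant lipid, had 63.9 and 64.8 RPKM. Ctsh, a protease that trims surfactant protein precursors, had 45.8 and 46.0 RPKM. Abca3, the lipid pump of lamellar bodies, had 21.5 and 20.4 RPKM.

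The surfactant proteins themselves divided into a pair that was expressed and a pair without a count. Sftpc (chromosome 14, 70520949 to 70524081, GRCm38), which encodes the hydrophobic surfactant protein C, had 473 and 557 counts, 16.8 CPM (15.3 to 18.3) and 19.0 CPM (17.5 to 20.7). On the RPKM scale it had 20.6 and 23.0, rank 3503 of the 13311 genes ranked, above the median of 11.3 RPKM of expressed protein-coding genes. Sftpb (chromosome 6, 72304610 to 72314371), the other hydrophobic surfactant protein, had 40.7 CPM (38.4 to 43.1) and 37.0 CPM (34.8 to 39.2). For both genes the intervals of the 2 libraries overlapped. The collectin genes Sftpa1 and Sftpd, whose products bind microbes in the airspace, had 0 counts in both libraries, as did Hc and Chil1. Lamp3, a lamellar body membrane protein, had 2 and 3 counts, the phosphate carrier gene Slc34a2 1 and 2, and S100g 1 and 1. The remaining expressed markers were Etv5, an ETS factor, with 12.1 and 11.2 RPKM, the aspartic protease gene Napsa with 1.79 and 1.47, Cebpa with 1.03 and 0.85, and Cxcl15 with 0.70 and 1.03. The low members were Lyz2, Cd74, Il33, Fabp5 and Muc1, with between 3 and 35 counts.

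To show the promoters of an expressed and an undetected surfactant gene and of a type I gene side by side, the bases from 250 to 8 before the RefSeq start site are printed for Sftpb (chr6:72304360-72304602, plus strand), Sftpa1 (chr14:41131538-41131780, plus strand) and Ager (chr17:34597600-34597842, plus strand), from RefSeq on GRCm38.p6. Capitals mark the core letters of NKX2 family motifs, CAAG, and of forkhead motifs, TGTTTNC, on either strand.
Sftpb: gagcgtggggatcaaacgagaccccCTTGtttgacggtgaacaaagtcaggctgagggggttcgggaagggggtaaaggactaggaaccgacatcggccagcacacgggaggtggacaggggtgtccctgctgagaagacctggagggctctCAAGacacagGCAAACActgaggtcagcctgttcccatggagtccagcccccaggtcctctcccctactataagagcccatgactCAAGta
Sftpa1: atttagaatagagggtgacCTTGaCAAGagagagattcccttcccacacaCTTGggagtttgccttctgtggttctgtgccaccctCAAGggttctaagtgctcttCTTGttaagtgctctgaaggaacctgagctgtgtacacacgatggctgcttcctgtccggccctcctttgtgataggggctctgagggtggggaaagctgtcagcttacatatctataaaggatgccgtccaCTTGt
Ager: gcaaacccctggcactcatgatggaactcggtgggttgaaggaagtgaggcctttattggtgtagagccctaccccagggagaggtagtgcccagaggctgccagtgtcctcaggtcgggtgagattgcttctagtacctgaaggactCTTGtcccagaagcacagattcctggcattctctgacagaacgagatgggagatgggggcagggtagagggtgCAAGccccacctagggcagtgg
CAAG was found 3 times in the Sftpb window, 6 times in the Sftpa1 window and 2 times in the Ager window. TGTTTNC was found 1 time for Sftpb and 0 times for Sftpa1 and Ager. Of 32851 promoter windows of that length, 86.0% held CAAG, with a median of 2 matches, and 17.4% held TGTTTNC. These matches describe letters, not binding sites, and the window of the undetected Sftpa1 held more CAAG matches than that of Sftpb.

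The wider set of genes for lipid and ion handling in type II cells was mostly expressed, 14 of 19 (73.7%), with 3 low and 2 not detected. Among all protein-coding genes 52.3% were expressed. Genes of sterol and fatty acid synthesis were among the higher ones. Insig1, a sterol sensor partner, had 96.6 and 111 RPKM, Acly, the ATP citrate lyase, 69.8 and 74.1, and Fasn, the fatty acid synthase, 65.6 and 61.1. The epithelial sodium channel was uneven among its subunits. Scnn1a had 35.4 and 32.9 RPKM and Scnn1g 0.36 and 0.38, while Scnn1b had 0 counts in both libraries. The water channel gene Aqp4 had 2 and 1 counts.

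Type I genes were expressed as a group and at a higher median level than the list of type II markers. Of 19 type I markers, 17 (89.5%, against 52.3% of all protein-coding genes) were expressed, none was low, and Cyp2b10 and Cldn18 were not detected. Their median was 17.8 counts per kilobase of exon per 1000000 counts, against 0.412 for the type II markers and 0.592 for all protein-coding genes. The wider set of type II lipid and ion handling genes had a median of 14.7, nearer to that of the type I genes. Cav1, the main protein of caveolae, had 803 and 730 RPKM and ranked 29 of 13311. Gprc5a, an orphan receptor gene, had 347 and 312 RPKM, and Lmo7 219 and 218. Both caveolin genes were high, since Cav2 had 209 and 226 RPKM.

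Ager, Pdpn, Hopx and Aqp5 ranked between 225 (Ager) and 762 (Aqp5) of the 13311 genes, and other expressed members ranked far lower. Ager (chromosome 17, 34597862 to 34600936), the receptor for advanced glycation end products, had 227 and 182 RPKM, and its CPM intervals (432 to 447, 349 to 363) did not overlap. Pdpn, or podoplanin, had 158 and 159 RPKM, the homeodomain protein gene Hopx 146 and 131, and the water channel gene Aqp5 84.8 and 81.9. The 99th percentile of expressed protein-coding genes was 319 RPKM, which Cav1 exceeded in both libraries and Gprc5a in the unscratched one. Col4a3, Clic5, Spock2, Rtkn2, Limch1, Igfbp2, Scnn1g and Akap5 ranked between 3798 (Col4a3) and 12587 (Akap5), and from Spock2, with 8.12 and 7.52 RPKM, downwards they lay below the median of expressed protein-coding genes. Cldn18, a tight junction gene of the alveolar epithelium, had 1 and 0 counts.

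**Figure D2:**
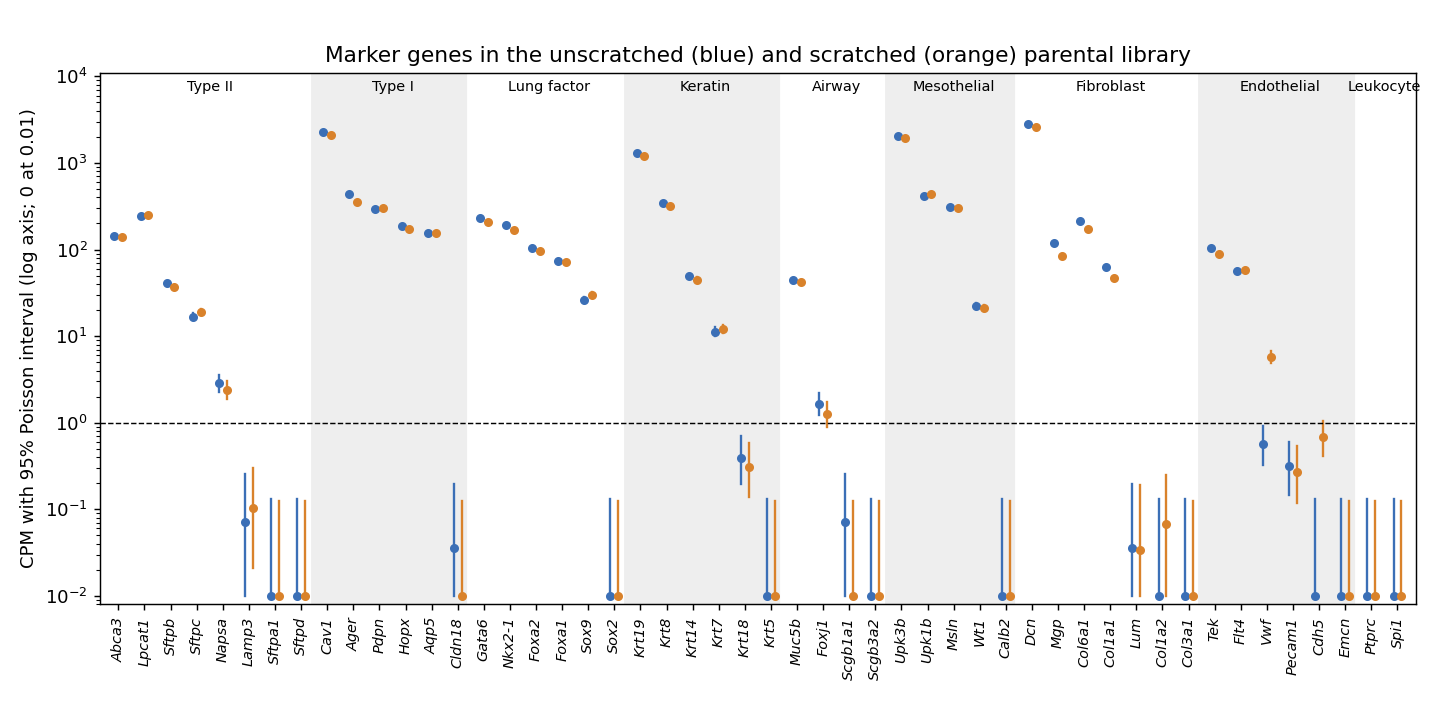
CPM (log axis, with 0 drawn at 0.01) of marker genes in the unscratched (blue) and scratched (orange) library, with bars for the 95% Poisson interval and a dashed line at 1 CPM. Within several groups some markers stand far above the line while others, such as Sftpa1, Krt5, Col3a1 and Emcn, are at 0.

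Of 30 transcription factors of lung and endoderm, 17 (56.7%) were expressed, near the 52.3% of all protein-coding genes, 3 were low and 10 were not detected. The factors are therefore described one by one. Nkx2-1 (chromosome 12, 56531958 to 56536908) had 67.1 and 56.8 RPKM, or 194 and 166 CPM. Gata6 had 59.5 and 52.1 RPKM, Foxa2 48.0 and 43.1, and Foxa1 22.4 and 21.3. The forkhead repressor genes Foxp1, Foxp4 and Foxp2 had 30.5 and 28.5, 23.4 and 19.3, and 10.1 and 9.45 RPKM. Of the factors that mark lung tips during branching, Sox9 had 6.16 and 6.96 RPKM and Id2 2.53 and 3.12. Gata4, a relative of Gata6 better known from heart and gut, had 17.1 and 14.7 RPKM. Sox2, the factor of conducting airways, had 0 counts, as did Pdx1, Cdx2 and Irx1, and Hnf4a had 0 and 1 counts. Grhl2, a grainyhead factor of epithelia, stood near the threshold with 1.56 and 1.23 CPM, or 0.31 and 0.24 RPKM, and Grhl3 had 4.69 and 4.30 RPKM.

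Genes of the other lung epithelial cells were expressed less often than all protein-coding genes, of which 52.3% were expressed and 38.2% not detected. The expressed shares were 15.4% for club and secretory, 25% for ciliated, 25% for basal and 9.09% for neuroendocrine genes. Of 13 club and secretory cell genes, the mucin genes Muc5b and Muc5ac were expressed, with 44.0 and 41.8 CPM and 1.63 and 1.77 CPM, and 10 were not detected. Scgb1a1, the club cell secretoglobin, had 2 and 0 counts, and Scgb3a2, Cyp2f2, Agr2, Bpifa1 and Gabrp had none. Of 12 ciliated cell genes, 3 were expressed (Ccdc39, Tppp3 and the ciliogenesis factor gene Foxj1), none above 3.48 CPM, and 6 were not detected. Of 8 basal cell genes, Krt14 was expressed with 28.5 and 25.4 RPKM and Aqp3 with 1.11 and 1.70. Krt5, the partner keratin of Krt14, had 0 counts in both libraries, and Trp63, the basal cell factor, was low with 32 and 26 counts. Of 11 neuroendocrine genes, Uchl1, a ubiquitin hydrolase gene, was expressed with 41.0 and 41.5 RPKM, and 8 others were not detected, Chga and Calca among them with 0 counts.

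General epithelial genes were uneven. Of 12 keratin genes of simple and stratified epithelia, 6 (50%) were expressed, near the 52.3% of all protein-coding genes. Krt19 (chromosome 11, 100140810 to 100148665) had 793 and 722 RPKM, rank 31, and Krt8 had 169 and 157 RPKM, although 29.7% of its 50-base windows recur in other annotated transcripts. Krt18, the usual partner of Krt8 in simple epithelia, was low with 11 and 9 counts, or 0.39 and 0.307 CPM. Of its 50-base windows, 0.72% recur exactly in other annotated transcripts, and why its count was low was not tested. Krt80 and Krt7 had 7.89 and 8.82, and 2.68 and 2.82 RPKM. Krt4, Krt20 and Krt6a had 0 counts in both libraries.

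Of 38 junction and epithelial identity genes, 23 (60.5%) were expressed beside the same 52.3%, 7 were low and 8 were not detected. F11r, a junctional adhesion molecule gene, had 205 and 183 RPKM, the plakoglobin gene Jup 190.0 and 157, and Cdh1 (chromosome 8, 106603351 to 106670246), or E-cadherin, 140.1 and 135. The tight junction scaffold gene Tjp1 had 48.5 and 47.0 RPKM. Epcam, an adhesion molecule often used to sort lung epithelium, was far lower than Cdh1, with 2.07 and 1.91 RPKM, or 4.36 and 4.06 CPM. The splicing regulator gene Esrp2 had 3.94 and 4.09 RPKM while Esrp1 was low with 14 and 26 counts. Cldn4, Dsc2 and Pkp3 had 0 counts, and Cldn7 and St14 had 1 and 0 counts each. The desmosome gene Dsp, which encodes desmoplakin, had 26.8 and 25.4 RPKM.

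Genes used to mark mesenchymal cells were expressed beside the epithelial ones. Of 18 mesenchymal genes, 14 (77.8%) were expressed, 4 were low and none was undetected, against 52.3% expressed among all protein-coding genes. Sparc, a collagen-binding matrix protein, had 667 and 616 RPKM, and Vim, or vimentin, had 318 and 299. Fn1, or fibronectin, had 23.9 and 24.3 RPKM, and Cdh2, or N-cadherin, had 12.5 and 12.4, below Cdh1 in both libraries. Factors of epithelial to mesenchymal transition were expressed at modest levels. Zeb1 had 7.40 and 6.78 RPKM, Zeb2 2.35 and 2.41, Snai1 1.74 and 1.63, and Snai2 1.5 and 1.41, each below the median of expressed protein-coding genes. Twist1 had 2.55 and 2.35 CPM. The low members were Spp1, Twist2, Cdh11 and Tgfbi, and the last had 0 and 6 counts.

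Fibroblast genes spanned the range from very high to absent. Of 24 fibroblast genes, 8 (33.3%) were expressed, 7 were low and 9 were not detected, against 52.3% expressed among all protein-coding genes. Dcn (chromosome 10, 97479609 to 97518143), which encodes the small proteoglycan decorin, had 79083 and 77012 counts, 579.9 and 536 RPKM, rank 53 of 13311. Mgp, or matrix Gla protein, had 161 and 114 RPKM, and its CPM intervals (114 to 122, 81.8 to 88.5) did not overlap. Fbln1, a fibulin gene, had 70.6 and 60.6 RPKM, and the collagen VI genes Col6a1 and Col6a2 had 49.9 and 40.2, and 34.8 and 27.5.

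The fibrillar collagens did not accompany Dcn. Col1a1 was expressed with 10.4 and 7.51 RPKM, but Col1a2, which encodes the other chain of the same collagen, had 0 and 2 counts and Col3a1 had 0 in both libraries. Lum, a proteoglycan related to decorin, had 1 count in each library. The lung fibroblast factors Tcf21 and Tbx4, the ligand gene Fgf10, and Inmt and Dpt had 0 counts in both, and Mfap5 had 0 and 1. Pdgfra, the receptor of alveolar fibroblasts, was near the threshold with 1.63 and 1.77 CPM. Smooth muscle and pericyte genes were lower still. Of 12 such genes 1 (8.33%), Tagln, was expressed with 2.55 and 2.90 CPM, beside 52.3% of all protein-coding genes. In Tagln, 67.9% of exon bases overlap a gene on the other strand. Acta2 had 0 and 7 counts and Pdgfrb 3 and 1. In bulk RNA, fewer cells of a type and less RNA per cell cannot be told apart.

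The mesothelial markers Upk3b, Upk1b and Msln were among the more abundant identity genes. The expressed members Gpm6a, Wt1 and Lrrn4 lay near or below 11.3 RPKM, the median of expressed protein-coding genes. Of 7 mesothelial genes in the count table, 6 (85.7%, against 52.3% of all protein-coding genes) were expressed. Calb2, or calretinin, had 0 counts in both libraries. Upk3b (chromosome 5, 136038496 to 136046487), a uroplakin gene, had 57637 and 56966 counts, 562 and 527 RPKM, and ranked next after Dcn at 54. Upk1b, another uroplakin gene, had 212 and 222 RPKM, and Msln, or mesothelin, had 141 and 135. Gpm6a, a membrane glycoprotein gene, had 11.3 and 11.1 RPKM, and Lrrn4 had 1.91 and 1.54. Wt1, a zinc finger factor of mesothelium and kidney, had 6.95 and 6.49 RPKM, or 22.1 and 20.95 CPM. Muc16 was not analysed here. The levels of these genes were alike in the 2 libraries, the widest ratio being that of Lrrn4, with 7.30 and 5.97 CPM.

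**Figure D3:**
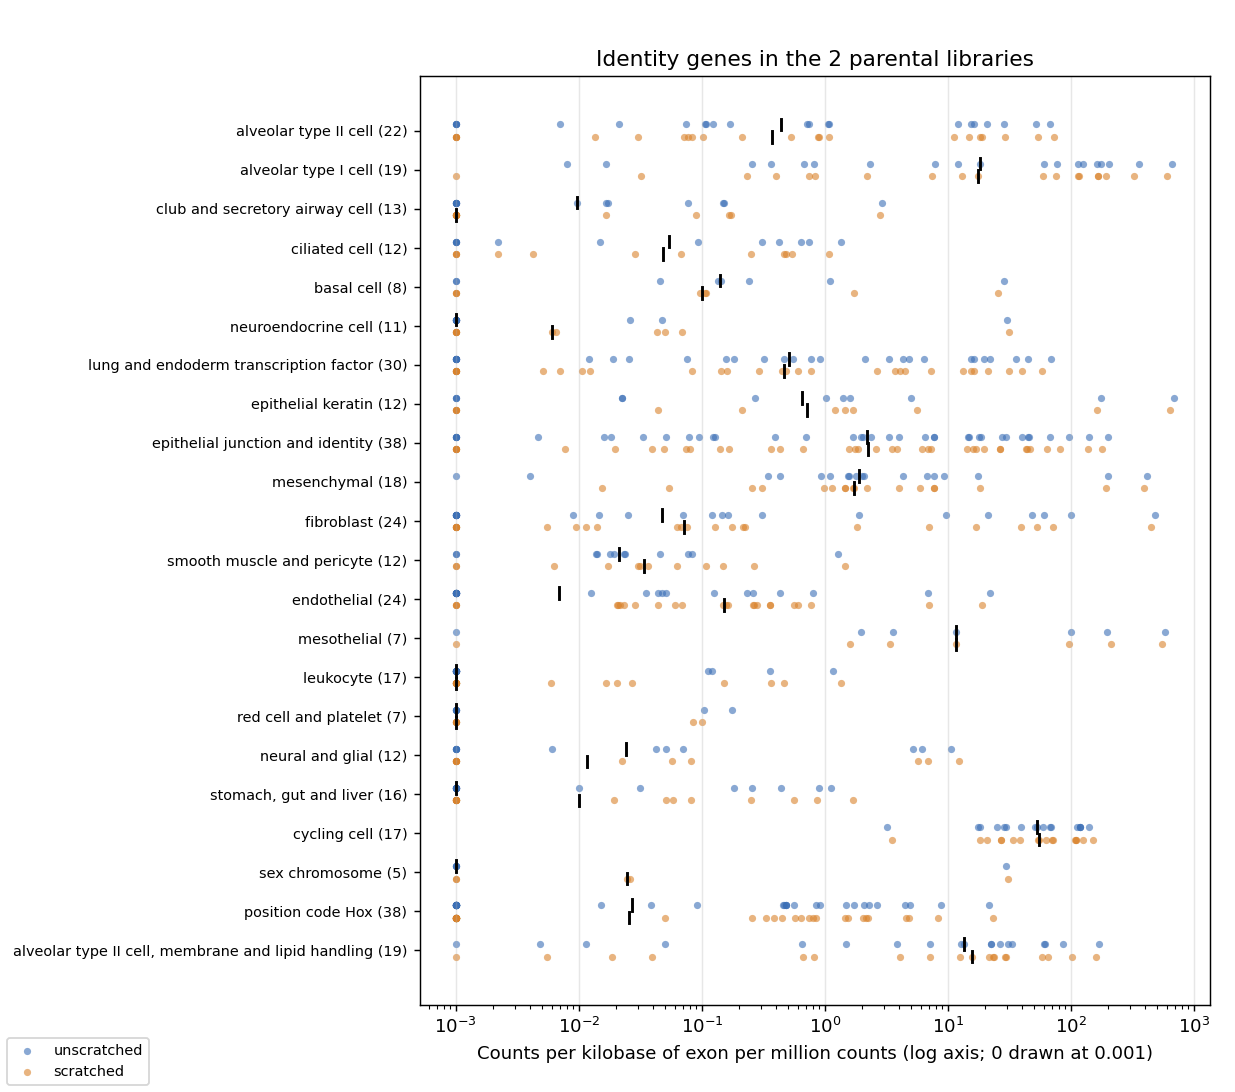
Each point is a gene of an identity list (number of genes in parentheses) at its counts per kilobase of exon per 1000000 counts (log axis, with 0 drawn at 0.001), in the unscratched (blue) and scratched (orange) library, and black ticks are list medians. Cycling, type I, type II lipid-handling and mesothelial genes have medians above 10 in both libraries, while the leukocyte and red cell medians are at 0.

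Among endothelial genes, a few receptors were expressed and the defining junction genes were near 0. Of 24 endothelial genes, 5 (20.8%) were expressed, 12 were low and 7 were not detected, against 52.3% expressed among all protein-coding genes. Tek (chromosome 4, 94739289 to 94874976), the angiopoietin receptor TIE2, had 2909 and 2630 counts, 103 CPM (99.4 to 107) and 89.7 CPM (86.3 to 93.2), or 21.5 and 18.5 RPKM. Flt4, the receptor of lymphatic vessel growth factors, had 8.81 and 8.88 RPKM, and Flt1, a VEGF receptor, 0.83 and 1.13. Plvap and Eng were at the threshold, with 1.59 and 1.54, and 1.06 and 1.06 CPM. Pecam1, the platelet and endothelial adhesion molecule, had 9 and 8 counts, and Emcn, Sox18 and Car4 had 0 in both libraries.

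The rest of the endothelial list differed between the libraries. Tek, Flt4 and Flt1 were set aside after the values were seen. The other 21 genes held 156 counts in the unscratched and 532 in the scratched library, and 12 against 3 of them were at 0. Over all 46078 identifiers, 19606 had a count in the unscratched and 20307 in the scratched library. Vwf, the von Willebrand factor, had 16 and 169 counts, or 0.567 CPM (0.324 to 0.921) and 5.77 CPM (4.93 to 6.70). Kdr, the main VEGF receptor of vessels, had 12 and 74 counts, Tie1 0 and 52, Robo4 0 and 23, Cdh5, the vascular cadherin, 0 and 20, and Cldn5 0 and 11. In the scratched library alone, 9 of the 24 genes reached 1 CPM. The whole list summed to 171 and 174 CPM, of which Tek, Flt4 and Flt1 made up most. What brought these counts into 1 of the libraries was not tested.

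**Figure D4:**
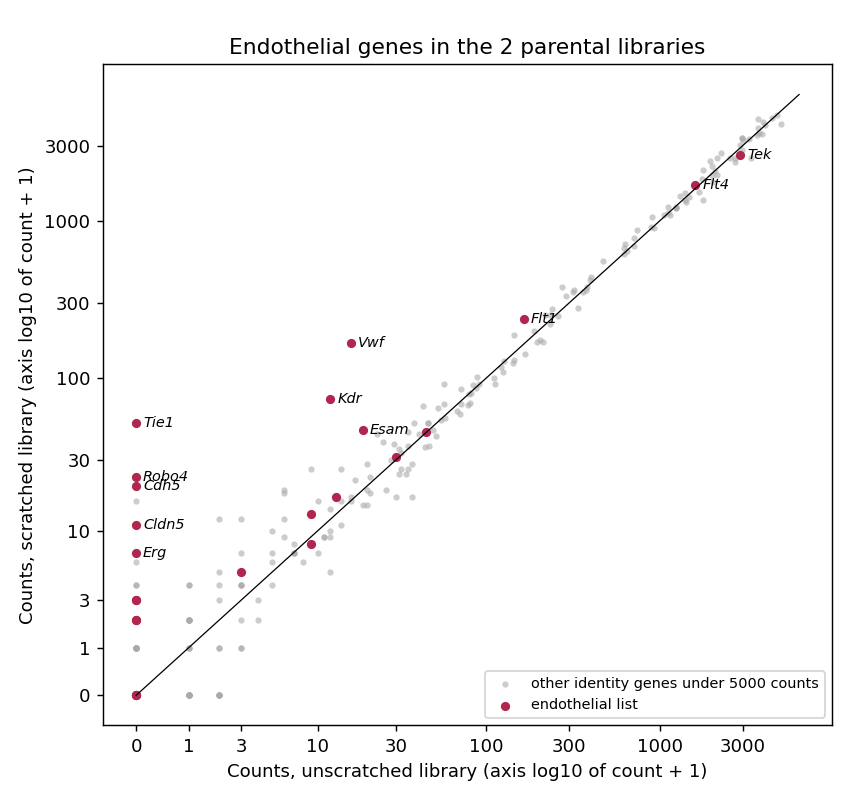
Counts per gene in the unscratched (x) and scratched (y) library, on axes of log10 of the count plus 1, with the line of equal counts. Endothelial genes are red and other identity genes under 5000 counts in both libraries grey. Tek and Flt4 lie close to the line, Tek slightly below it, and Vwf, Kdr, Tie1, Robo4, Cdh5 and Cldn5 lie above it.

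Genes of blood cells, nerve and gut were mostly absent. Shares expressed were 5.88% for the leukocyte, 18.8% for the gut and 25% for the neural list, beside 52.3% of all protein-coding genes. Of 17 leukocyte genes, Cd14, a lipopolysaccharide co-receptor, was expressed with 2.02 and 2.35 CPM and 13 were not detected, with Ptprc, Spi1, Adgre1 and Tyrobp at 0 counts. The leukocyte list summed to 3.83 and 5.05 CPM. Of 7 red cell and platelet genes, none was expressed. Of 16 stomach, gut and liver genes, 3 were expressed (Ctse, Lgals4 and Cdh17), none above 2.83 CPM, and Alb, Ttr, Apoa1, Tff1, Tff3, Gkn1, Gkn3 and Anxa10 had 0 counts. Of 12 neural and glial genes, 3 were expressed. Map2, a microtubule-associated protein gene, had 27.3 and 30.8 RPKM, Mbp, or myelin basic protein, 10.6 and 9.70, and the tubulin gene Tubb3 5.05 and 6.65. Snap25, Sox10, Olig2, Nefl and Stmn2 had 0 counts.

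Cell cycle genes were expressed without exception among the 17 listed, beside 52.3% of all protein-coding genes. Mcm2, a replicative helicase subunit, had 229 and 209 RPKM, and Pcna, the replication clamp, had 216 and 229. Top2a, a topoisomerase gene, had 200.4 and 207 RPKM, and Mki67, the usual marker of cycling cells, 65.7 and 66.7. The lowest was Ccne1, or cyclin E1, with 4.16 and 4.51 RPKM. Cycling transcripts were thus high in the intact monolayer as well as in the scratched one.

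Pooled over 22 signalling families, a larger share of receptor genes than of ligand genes was expressed, but not in every family. Ligands had the larger share in the PDGF, CSF1 and KIT, Notch, chemokine, ephrin, slit and netrin, and integrin and matrix families. The G protein-coupled and nuclear receptor families had no ligand list. Of 300 receptor genes, 174 (58.0%) were expressed and 72 were not detected. Of 244 ligand genes in the count table, 107 (43.9%) were expressed and 92 were not detected. Beside the 52.3% of all protein-coding genes, neither share lay far from the background, so the families rather than the totals are described.

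**Figure D5:**
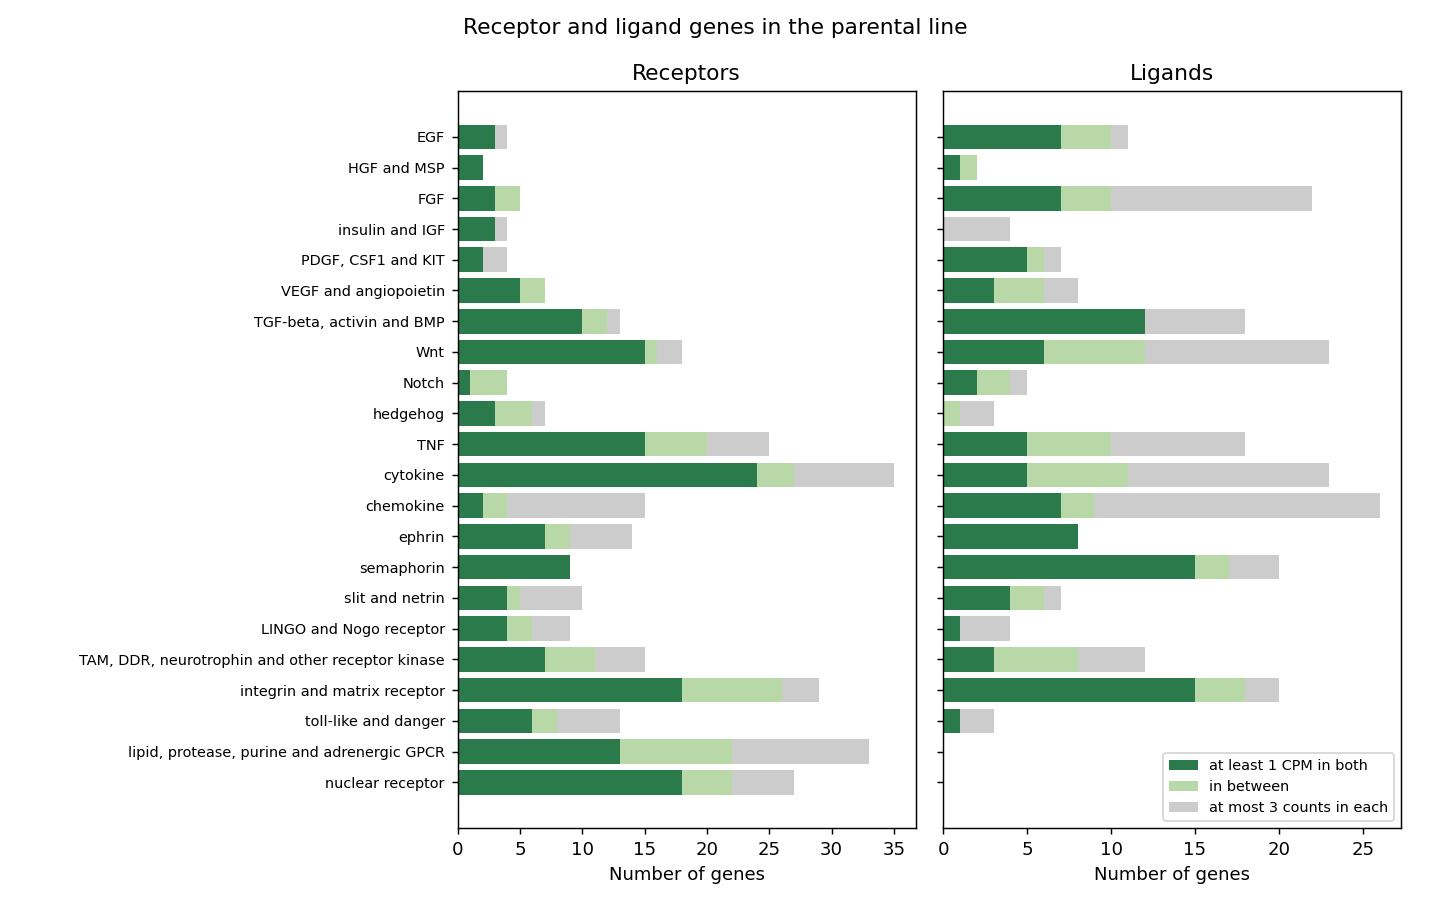
Number of receptor genes (left) and ligand genes (right) per signalling family that had at least 1 CPM in both libraries (dark green), at most 3 counts in each (grey) or values in between (light green). All 9 plexins and all 8 ephrin ligands are expressed, and no insulin or hedgehog ligand is.

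In growth factor signalling, the ligand genes of Met and of the insulin and IGF receptors were near 0, while several EGF family ligands were expressed. Of the EGF receptor family, Erbb2 had 41.1 and 34.7 RPKM, Erbb3 9.14 and 8.06, and Egfr 1.43 and 1.32, while Erbb4 had 0 and 1 counts. The ligand genes Btc, Hbegf and Tgfa had 17.1 and 19.5, 15.7 and 13.1, and 3.17 and 3.32 RPKM. Of 11 ligands of the family 7 (63.6%) were expressed, beside 52.3% of all protein-coding genes. At least 1 RPKM in both libraries was reached by 4 ligands, and at least 5 CPM by 3. Met, the receptor of hepatocyte growth factor, had 9.99 and 11.8 RPKM, and its ligand gene Hgf had 8 and 7 counts. Of the insulin and IGF family, Igf2r, Insr and Igf1r were expressed, with 12.8 and 11.6, 9.34 and 8.97, and 5.29 and 5.30 RPKM. None of the 4 ligand genes of that family was, since Igf1 had 0 and 3 counts, Igf2 1 and 0, and Ins1 and Ins2 none.

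FGF receptors were unequal. Fgfrl1, a receptor without a kinase, had 44.1 and 37.3 RPKM, Fgfr3 21.4 and 20.9, and Fgfr2, the receptor of lung branching, 1.19 and 1.34. Fgfr1 had 0 and 15 counts. Of 22 FGF ligand genes, 7 (31.8%) were expressed, beside 52.3% of all protein-coding genes. They were led by Fgf18 with 33.4 and 33.1 RPKM, then Fgf13 with 8.63 and 9.12 and Fgf1 with 3.14 and 2.73. In the PDGF, CSF1 and KIT family the ligands led. Csf1, the macrophage growth factor, had 33.4 and 32.5 RPKM, Pdgfa 28.6 and 27.7 and Pdgfb 13.9 and 12.1, while the receptor gene Csf1r had 0 and 1 counts, and Kit had 2.20 and 2.07 RPKM.

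In the VEGF and angiopoietin family, Nrp1, a co-receptor for VEGF and semaphorins, had 200.1 and 171 RPKM and Nrp2 22.6 and 20.3, beside the 21.5 and 18.5 of Tek. The ligand genes Vegfb and Vegfa had 64.7 and 65.6, and 27.5 and 28.7 RPKM. The angiopoietin genes were near 0, with 1 and 0 counts for Angpt1 and Angpt4 and 4 and 12 for Angpt2.

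TGF-beta and Wnt receptors were broadly expressed. The TGF-beta, activin and BMP family had 10 of 13 receptors (76.9%) and 12 of 18 ligands (66.7%) expressed, beside 52.3% of all protein-coding genes. Tgfbr2, the type II TGF-beta receptor, had 60.0 and 54.4 RPKM, and the BMP receptor gene Bmpr1a had 30.9 and 31.6. Tgfb3 and Tgfb2 were the higher TGF-beta genes, with 44.8 and 39.2, and 38.3 and 36.9 RPKM, and Tgfb1 had 18.0 and 15.04. Bmp5 had 65.6 and 65.4 RPKM, but 46.7% of its exon bases overlap a gene on the other strand and whether strand was kept is not given in the sources used here. Of the Wnt family, 15 of 18 receptors (83.3%) but 6 of 23 ligands and agonists (26.1%) were expressed. Ryk, Lrp6 and Fzd7 had 28.8 and 27.8, 23.1 and 23.4, and 19.2 and 16.4 RPKM, and the ligand genes Wnt7a and Wnt9a had 15.9 and 15.8, and 11.98 and 11.9. Wnt3a, Wnt5a and Wnt16 had 0 counts.

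Notch and hedgehog genes were expressed unevenly. Of Notch receptors and ligands 25% and 40% were expressed. Of hedgehog receptors and ligands 42.9% and 0% were, beside 52.3% of all protein-coding genes. These lists are short, with between 3 and 7 genes each. Notch2 was the 1 Notch receptor of 4 that was expressed, with 13.3 and 13.1 RPKM, and the ligand genes Jag1 and Jag2 had 4.37 and 4.26, and 4.57 and 4.07. Smo, the hedgehog signal transducer, had 63.2 and 62.9 RPKM, Cdon 19.8 and 18.4 and Ptch1 3.45 and 3.36. None of the 3 hedgehog ligands was expressed. Shh, the lung epithelial ligand, was low with 31 and 20 counts.

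In the TNF and cytokine families a larger share of receptors than of ligands was expressed, and among chemokines a smaller share. For TNF, cytokine and chemokine genes the receptor shares were 60.0%, 68.6% and 13.3%. The ligand shares were 27.8%, 21.7% and 26.9%, beside 52.3% of all protein-coding genes. In the TNF family, 15 of 25 receptors and 5 of 18 ligands were expressed. Tnfrsf1a, the main TNF receptor, had 207 and 186 RPKM, Ltbr, the lymphotoxin receptor, 152 and 151, and Tnfrsf12a, the TWEAK receptor, 101 and 105, while Tnf itself had 0 counts. Of 35 cytokine receptors 24 were expressed, led by the interferon gamma receptor gene Ifngr2 with 51.9 and 52.9 RPKM, Il17rc with 33.2 and 31.0, and the type I interferon receptor gene Ifnar1 with 30.9 and 31.1. Of 23 cytokine genes 5 were expressed, led by Clcf1, Il18 and Lif with 13.6 and 14.8, 12.2 and 12.9, and 9.63 and 11.5 RPKM. Il1b had 0 and 1 counts and Il6 4 and 8. Of 15 chemokine receptors 2 were expressed, Ackr3 with 10.9 and 11.7 RPKM and Cxcr4 with 1.43 and 1.09, and of 26 chemokines 7 were, among them Cx3cl1 with 4.30 and 3.45. Of 13 toll-like and danger receptors 6 (46.2%) were expressed, with Ager the highest and Nod1 next at 8.54 and 7.59 RPKM.

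Guidance genes were expressed to an uneven extent. All 9 plexin genes, receptors for semaphorins, were expressed, led by Plxnb2 with 175 and 159 RPKM. Of 20 semaphorin genes 15 (75%) were, led by Sema3a with 52.3 and 50.6 and Sema4g with 43.9 and 43.8 RPKM. All 8 ephrin genes were expressed, Efnb2 with 61.5 and 59.3 RPKM and Efna1 with 33.5 and 29.3. Of their 14 receptors 7 (50%) were, near the 52.3% of all protein-coding genes. Among them Epha2 stood at 40.7 and 39.3 RPKM and Ephb3 at 37.1 and 33.1. Of 10 slit and netrin receptors 4 (40%) were expressed, as were 4 of 7 ligands (57.1%) in the count table. The netrin receptor genes Neo1 and Unc5b had 63.4 and 63.0, and 59.8 and 54.3 RPKM, while Dcc, the classical netrin receptor, had 0 counts.

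The genes mutated in the other lines of the series differed widely in the parental cells. LINGO proteins are leucine-rich repeat membrane proteins best known from nerve cells, where LINGO1 forms a complex with the Nogo receptor and with TROY or the p75 neurotrophin receptor. Lingo1 (chromosome 9, 56618475 to 56796468) was expressed with 28.0 CPM (26.1 to 30.1) and 25.4 CPM (23.6 to 27.3), or 7.50 and 6.70 RPKM. Lingo2 and Lingo3 had 0 counts in both libraries, and Tnfrsf19, which encodes TROY, had 0 and 1. Lingo4 stood near the threshold with 1.31 and 1.37 CPM. Of the partner receptors, Rtn4rl1 had 8.50 and 7.06 RPKM, Rtn4rl2 1.32 and 0.95, and Rtn4r, the Nogo receptor, was low with 6 and 8 counts, as was Ngfr, the p75 receptor, with 14 and 11. The ligand gene Rtn4, which encodes Nogo, had 38.3 and 39.0 RPKM, and the myelin ligands Mag, Omg and Mog had at most 1 count in each library.

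Some adhesion receptors and basement membrane genes were high. Itgb1, the common integrin beta chain, had 246 and 254 RPKM, Dag1, or dystroglycan, 157 and 147, and the syndecan gene Sdc4 115 and 106. Of 29 integrin and matrix receptors 18 (62.1%) were expressed, 8 were low and 3 not detected, with a median of 0.793 counts per kilobase of exon per 1000000 counts, beside 0.592 for all protein-coding genes. Of 20 matrix ligands 15 (75%) were expressed, with a median of 21.6. Among all protein-coding genes 52.3% were expressed. Col4a5, a collagen IV chain, had 229 and 205 RPKM, and the laminin chains Lamb2 and Lamc1 had 154 and 125, and 96.2 and 84.9. Lama4 had 0 and 62 counts and Nid1 1 and 21, more in the scratched library, while Col4a5, Lamb2 and Lamc1 had lower RPKM there. Ddr1, a collagen receptor kinase, had 68.6 and 57.0 RPKM, and Axl, a receptor for the protein encoded by Gas6, had 35.2 and 33.0, while Gas6 had 0 and 1 counts.

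Receptors for small ligands were expressed in part. Of 33 G protein-coupled receptors for lipids, proteases, purines and catecholamines, 13 (39.4%) were expressed, beside 52.3% of all protein-coding genes. F2r, the thrombin receptor, had 62.2 and 57.6 RPKM, S1pr5 24.2 and 22.1, and Lpar2 14.4 and 14.8. Of 27 nuclear receptors 18 (66.7%) were expressed. Thra, a thyroid hormone receptor gene, had 47.5 and 40.4 RPKM, Pparg 44.9 and 45.7, the oxysterol receptor gene Nr1h2 41.3 and 39.6, and Nr3c1, the glucocorticoid receptor gene, 16.7 and 17.1.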

How the data were processed

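RNA of MLE12 monolayers was measured in 2 parental libraries, 1 per group. Libraries came from a messenger RNA kit, per the labels' protocols. The authors deposited raw counts per Ensembl gene, and a second deposited table gave RPKM per gene symbol. The submitters' processing notes name Trimmomatic 0.39, STAR, HTSeq, edgeR and GRCm38, without order. For strand, settings and other versions, nothing is given in the sources used here. In 8018 well-counted genes the ratio of the authors' RPKM between libraries followed the counts to an SD of 0.000963 log2 units. Per the file's summary lines, 7.80% and 8.02% of uniquely aligned reads fell in no feature, and 30.3% and 30.2% of alignments were multi-mapped and not counted, so genes with near-identical copies read low.

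Of 46078 identifiers, 45229 matched GENCODE M21. Of 13559 rows with RPKM, 13311 genes were matched (26 by RefSeq synonym), and genes listed with conflicting values (Sftpb) were given as CPM. CPM used total counts in genes as library size. Of 910 listed genes, 908 matched. Gene overlap and shared 50-base windows were computed from the annotation. Named genes were the 25 highest by RPKM, with and without ribosomal and mitochondrial genes, up to 4 expressed and the undetected members of each identity list, up to 3 expressed members per receptor or ligand list, Sftpc, Dcn, Tek and the 4 targeted genes, with further list members allowed. Some named genes are not reported here. Members, lists and rule were chosen with earlier results of these data known. Python 3.11.15, scipy 1.17.1 and R 4.3.3 were used. The classes and intervals were tested on simulated data. Alternatives were other thresholds, each library alone, and edgeR 4.0.16 (TMM) or DESeq2 1.42.0 size factors.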

Additional observations from a re-analysis of the deposited data

How the results depend on the processing

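No paired analysis was possible because each group has 1 library. The number of expressed protein-coding genes, 11303, ran from 10033 (5 CPM) to 11764 (0.5 CPM), and was 10434 with 1 RPKM of the authors as the threshold. Expressed identity genes, 168, ran from 127 to 190, and receptors and ligands, 281, from 214 to 299. All 3 counts stayed within 1.5 times under the 7 alternatives. The 100 most counted genes held 14.99% of unscratched counts, and 14.92% among protein-coding genes only. Of 64 lists, 21 changed their count by over 1.5 times at 5 CPM, 11 at 1 RPKM, 5 at 0.5 CPM, 2 in the scratched library alone (endothelial, 9 genes, and leukocyte, 2), 1 each in the unscratched library alone (hedgehog ligands) and with TMM factors (leukocyte), and none with DESeq2 factors. At 5 CPM 3 endothelial genes passed, and at 1 RPKM 2. Counts in the report that fell at 5 CPM include TNF receptors (15 to 9), FGF ligands (7 to 3), Wnt ligands (6 to 2), TNF ligands (5 to 2), cytokines (5 to 3) and chemokines (7 to 3). Of the 25 highest genes by RPKM, 23 were also the highest per kilobase of exon from the annotation. With TMM factors 20 named levels were multiplied by between 0.989 and 1.011.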

Other observations

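Genes of the Hox clusters, which mark position along the body axis, were expressed from 2 clusters of 4. Of 38 Hox genes 14 (36.8%, against 52.3% of all protein-coding genes) were expressed, 5 were low and 19 were not detected. At a threshold of 5 CPM 5 were expressed. The 14 all lay in the Hoxa and Hoxb clusters. Hoxa10 (chromosome 6, 52231197 to 52240854) had 26.9 and 28.4 RPKM, Hoxa7 12.04 and 11.2, Hoxa5, a lung-expressed Hox gene, 4.80 and 4.37, and Hoxb9 4.33 and 4.65. Every Hoxc gene listed had 0 counts in both libraries, and of the Hoxd genes listed Hoxd8 had 3 and 4 counts and the others 0. Xist, the RNA that coats the inactive X chromosome, had 529 and 558 CPM. The Y-linked genes Uty and Kdm5d had 0 counts, Eif2s3y 0 and 3, and Ddx3y 0 and 4.

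Some genes were counted almost only in the scratched library. By a rule chosen after the data were seen, 84 genes had at most 1 count in the unscratched and at least 10 in the scratched library, 1570 counts in all. Of these, 31 were protein-coding, 52 were pseudogenes and 4 were on the endothelial list. All 46078 identifiers included 21596 protein-coding genes and 8758 pseudogenes, and the endothelial list had 24 genes. The reverse rule found 3 genes with 36 counts (Lax1, Guca2a and Hist1h3c). The highest were Epas1, a hypoxia-inducible factor gene, with 0 and 93 counts, Lama4 with 0 and 62, and Tie1 with 0 and 52. What separates the libraries in these genes was not tested.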
